A study of Homo sapiens with 6 samples.

Results

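The interferon-stimulated genes examined here are 39 genes whose transcription is raised by type I interferon in many cells, taken as a list of symbols and matched to the gene identifiers of the deposited tables. All 39 had an identifier among the 60609 genes listed per library. After a filter on low counts, 38 of them entered a test run over 20725 genes, and IFITM3 was left out with 5 to 11 counts per library. The cells were OCI-AML5, a human acute myeloid leukemia (AML) line grown in medium with the cytokine GM-CSF. Cells of 3 libraries received 1 µM S767, a small molecule picked in the study's screen of primary AML specimens, for 24 hours, and cells of 3 libraries received the vehicle dimethyl sulfoxide (DMSO). Both groups are the same line in the same medium, so each group stands for a single line and not for AML in general. The study's methods give the treatment as done in triplicate, without saying whether these were separate cultures, so p-values measure only the spread between these samples, which may be technical.

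Type I interferons bind the receptor pair IFNAR1 and IFNAR2, which activates the kinases JAK1 and TYK2. These phosphorylate STAT2, which joins IRF9 in the complex ISGF3, and the complex binds interferon-stimulated response elements (ISRE) in the promoters of antiviral genes. Interferon gamma acts mainly through a different element, the gamma-activated site (GAS). Many of these genes are also transcribed at a lower level without added interferon, in blood cells among others.

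The promoters of the members were read from RefSeq (GRCh38.p14), where 30 of the 39 genes had at least 1 entry and 40 entries in all. The ISRE core was searched as TTTC, any 2 bases and TTTC again, and the GAS as TTCNNNGAA, on both strands, in the 250 bases before the start site. The ISRE core was found in 57.5% of the members' promoters and in 3.02% of all 35116 promoters. The GAS was found in 25.0% of the members' promoters and in 6.57% of all promoters. A match is a run of letters, not a shown binding site. The stretches below carry an ISRE core or, in IRF1, a GAS, and come from members with different outcomes in the comparison of S767 with DMSO. Each is written 5′ to 3′ on the gene's own strand with the matching bases in capitals, where GAAA, any 2 bases and GAAA is the ISRE core on the other strand.
HERC5 (chr4:88456982-88457066, + strand, 3 ISRE core matches): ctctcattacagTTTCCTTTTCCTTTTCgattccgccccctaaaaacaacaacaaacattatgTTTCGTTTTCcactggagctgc
SAMD9 (chr7:93118094-93118127, - strand, ISRE core): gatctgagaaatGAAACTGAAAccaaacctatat
RSAD2 (chr2:6877620-6877653, + strand, ISRE core): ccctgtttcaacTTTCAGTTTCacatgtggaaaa
ISG15 (chr1:1013372-1013411, + strand, 2 overlapping ISRE core matches): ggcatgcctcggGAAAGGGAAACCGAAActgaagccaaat
IFIT1 (chr10:89392495-89392541, + strand, 2 ISRE core matches): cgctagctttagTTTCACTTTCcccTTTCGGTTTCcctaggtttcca
IFI6 (chr1:27672264-27672360, - strand, 3 ISRE core matches): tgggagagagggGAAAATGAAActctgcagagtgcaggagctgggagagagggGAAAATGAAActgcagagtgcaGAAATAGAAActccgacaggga
IRF1 (chr5:132490877-132490909, - strand, GAS): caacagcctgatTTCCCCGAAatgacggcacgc
The first matching base lay between 113 and 156 bases before the start site in HERC5, SAMD9, RSAD2, ISG15, IFIT1, IFI6 and IRF1, the nearest being ISG15 and the farthest IFI6.

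The libraries held 149994700 to 258029564 counts on genes, with DMSO replicate 2 the shallowest. Of the 10 myeloid markers, the most abundant had a mean of 236 TPM (RSEM's level, scaled to transcript length and library) for SPI1 and 106 TPM for CEBPA, myeloid transcription factors, and 97.1 TPM for the surface marker CD33, while CD34 was at 1.43 TPM and ANPEP (CD13) near absent at 0.0533 TPM. Of 9 markers of other cell types, the endothelial PECAM1 was the highest at a mean of 2.73 TPM and the T cell gene CD3D followed at 0.328 TPM, while CD3E and the erythroid HBA1 had no counts in any library. Libraries with the same replicate number deviated together from their group means, with correlations of 0.779, 0.872 and 0.754 over 6191 genes, so each result is also given with the replicate number as a block where that changed it.

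Without added interferon, the members spanned a wide range of levels, given here in TPM. IFITM2, which hinders the entry of enveloped viruses, was the highest at a mean of 437 ± 11.3 TPM (SD, n = 3) in DMSO and 449 ± 20.1 TPM in S767. ADAR, the enzyme that edits adenosines in double-stranded RNA, followed at 142 ± 3.61 TPM in DMSO and 141 ± 2.94 TPM in S767. By their mean over all libraries these 2 members exceeded 100 TPM, 10 members lay between 10 and 100 TPM, 17 between 1 and 10, and 10 under 1. The 10 between 10 and 100 TPM were BST2, TRIM22, ISG15, IRF1, XAF1, HERC5, MX2, EIF2AK2, IFI35 and STAT2. The 10 under 1 TPM were IFI44, ISG20, IFIT1, IFI27, OAS1, OASL, MX1, IFI44L, OAS3 and IFITM3. Of these, IFI44L had 0.197 ± 0.0902 TPM in DMSO and 0.237 ± 0.0833 TPM in S767.

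**Figure D1:**
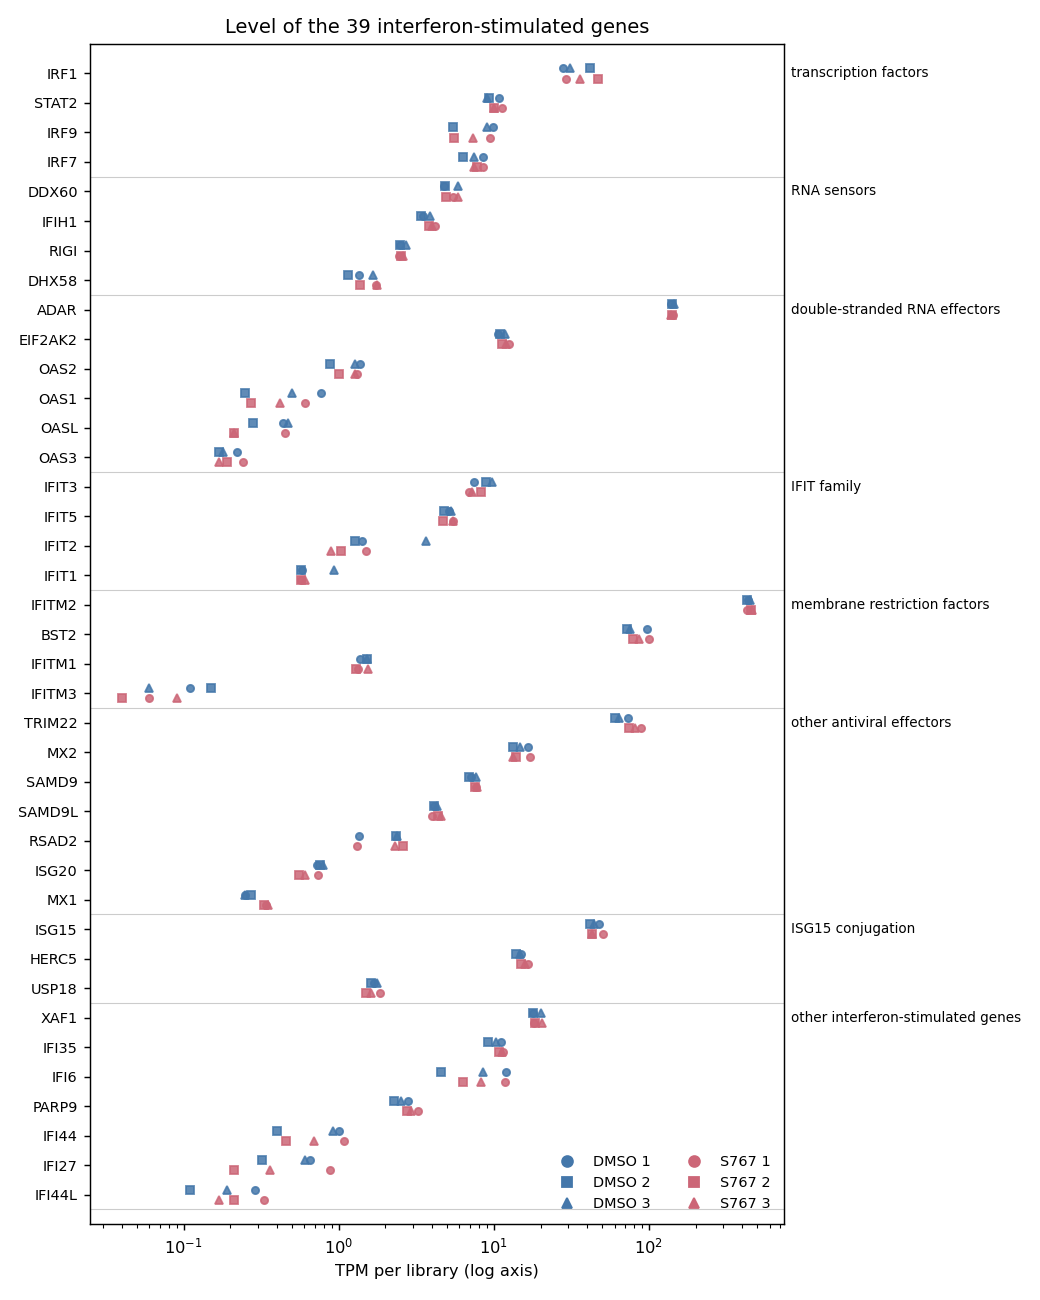
Level of each of the 39 members in each library, in TPM on a log axis, grouped by role. Circles, squares and triangles are replicates 1, 2 and 3, blue for DMSO and red for S767. The members run from IFITM3 near the floor to IFITM2 near 449 TPM, and for most genes the 2 colors overlap.

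S767 was compared with DMSO by edgeR's quasi-likelihood test on gene counts, with Benjamini-Hochberg adjustment over all genes tested. No member had an adjusted p under 0.05 without the block, where 0.00483% of all genes tested did, and limma-voom and DESeq2 likewise called 0 members. At an unadjusted P under 0.05 in edgeR, 4 members were higher in S767 and 1 was lower, against 2.03% and 1.51% of all genes tested. With the replicate number as a block, 6 members rose at an adjusted p under 0.05, against 2.16% of all genes tested, and 0 fell, against 1.08%. At an unadjusted P under 0.05 with the block, 15 members were higher, against 9.38% of all genes tested, and 3 were lower, against 7.39%. The 6 that rose did so by small amounts, from 1.09-fold to 1.25-fold. Every S767 library lay above every DMSO library in 6 members, against 5.12% of all genes tested, and below in 0, against 4.08%.

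The counts changed with the pair of libraries left out. Without the pair of replicate 2, 1 member, TRIM22, rose with the block, beside 0.0943% of all genes tested. Without the pair of replicate 1, 13 members rose and 3, IFIT2, IFIT3 and OASL, fell, beside 5.52% and 4.34% of all genes tested. Without the pair of replicate 3, 7 rose and 0 fell, beside 2.01% and 1.05%. Without the block, leaving out DMSO replicate 3 gave 7 members higher and 0 lower at an unadjusted P under 0.05, beside 1.58% and 0.949% of all genes tested. The count of lower members was 2 without DMSO replicate 1, DMSO replicate 2 or S767 replicate 1, beside 2.06%, 1.29% and 2.31% of all genes tested, and 0 without S767 replicate 3, beside 1.13%. DMSO replicate 2 held the lowest value of all 6 libraries in 21 of the 38 members. In these bulk libraries, a change in the share of cells that express a gene and a change in its RNA per cell cannot be told apart.

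Over the 38 members, the median log2 fold change of S767 over DMSO was 0.07, and 25 of them (65.8%) lay above 0, beside a median of -0.0002 and 49.9% over all genes tested. The median difference was 0.07 in the pair of replicate 1, 0.14 in the pair of replicate 2 and 0.008 in the pair of replicate 3, with 26, 32 and 19 members above 0. In all 3 pairs 16 members (42.1%) were higher in S767, beside 19.9% of all genes tested, and 3 (7.89%), OASL, IFIT3 and IFI27, were lower in all 3, beside 17.8%. The 25 members with a mean of at least 500 counts had a median of 0.11 with 20 above 0, where all genes at that level had a median of 0.005 with 53.5% above 0. The 13 members with fewer counts had a median of -0.12 with 5 above 0. Their medians were 0.15, 0.07 and -0.33 in the pairs of replicates 1, 2 and 3, with 8, 9 and 2 above 0. Most differences were small, since 29 members without the block and 31 with it lay within 0.2 of 0 on the log2 scale.

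**Figure D2:**
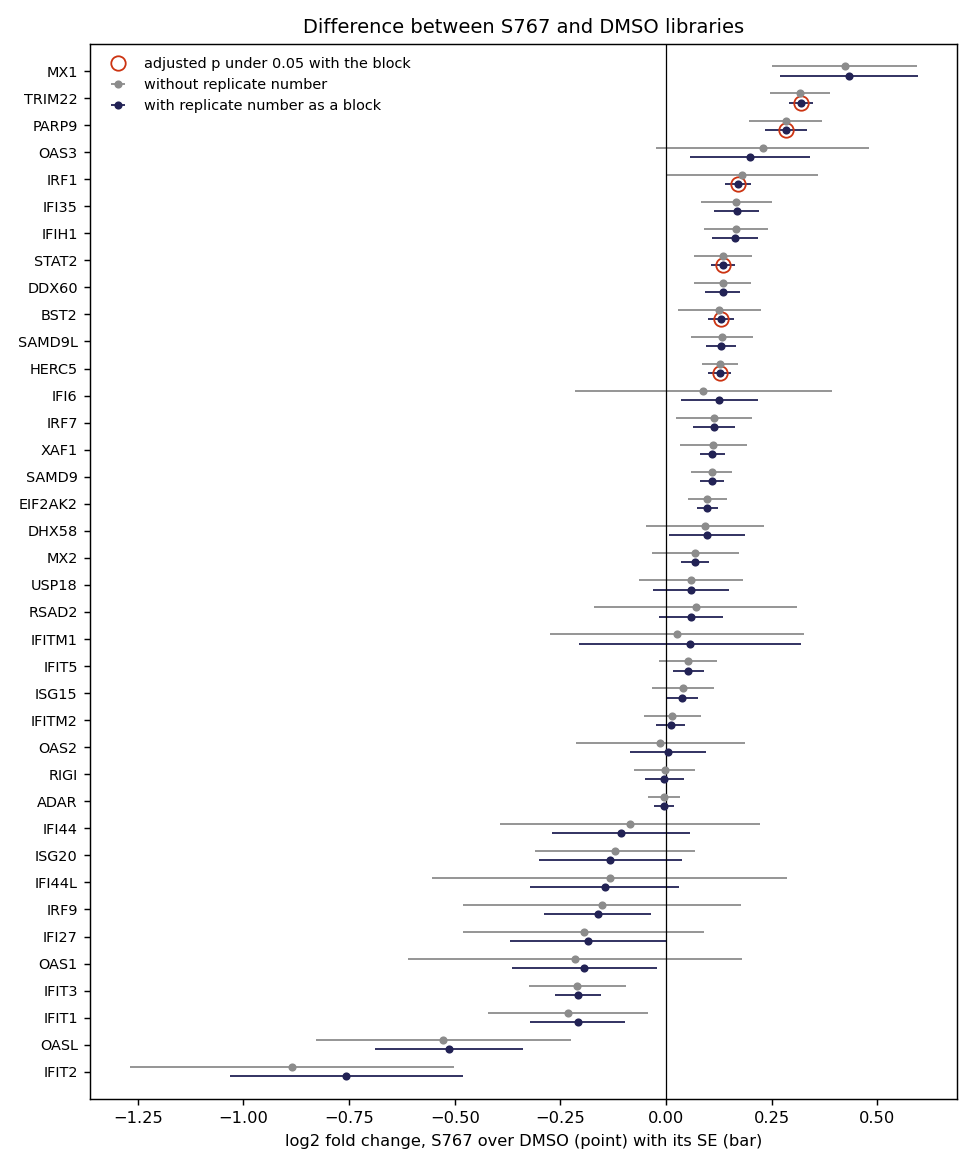
Log2 fold change of S767 over DMSO for the 38 members tested, with its standard error as a bar, without (gray) and with (dark) the replicate number as a block. Red rings mark the 6 members with an adjusted p under 0.05 with the block. The bars that lie clear of 0 in both fits include those of TRIM22, PARP9, HERC5 and MX1 above it and of IFIT2 and OASL below it. The bars shorten with the block in all 38 members.

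Among the transcription factors of the pathway, STAT2, the ISGF3 subunit, rose with the block. STAT2 (chr12:56341597-56360155, - strand) had 29.2, 26.9 and 25.5 CPM (counts scaled to library size) in DMSO replicates 1, 2 and 3 and 32.1, 29.1 and 28.3 CPM in S767. Each S767 library was above the DMSO library of its number, while the groups overlapped. The log2 fold change was 0.13 ± 0.03 (SE) with the block at an adjusted edgeR p of 0.0264, and 0.13 ± 0.07 without it at an unadjusted P of 0.0838. The blocked adjusted p was 0.0504 on RSEM expected counts, 0.332 without the pair of replicate 2 and 0.0752 without that of replicate 3.

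IRF1, a transcription factor whose gene responds to interferon gamma through the GAS, also rose with the block. IRF1 (chr5:132481609-132490798, - strand) had 39.6, 58.1 and 45.3 CPM in DMSO and 42.1, 67.6 and 52.2 CPM in S767. The replicate numbers stood further apart than the treatments, with replicate 2 the highest in both groups. With the block it was 0.17 ± 0.03 higher on the log2 scale at an adjusted edgeR p of 0.0105, and 0.18 ± 0.18 higher without the block at an unadjusted P of 0.347. Without S767 replicate 2 and without the block it was -0.02, and without the pair of replicate 2 the blocked adjusted p was 0.352.

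IRF7, which carries the later wave of interferon alpha transcription, was 0.11 ± 0.05 higher on the log2 scale with the block, at an adjusted edgeR p of 0.27. IRF9, the DNA-binding subunit of ISGF3, was -0.16 ± 0.13 with an adjusted p of 0.585. Its counts were 13.8% of the RSEM estimate for the same gene. The GENCODE annotation has the readthrough gene AL136295.5 across it, so its level is uncertain.

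The RNA sensors start interferon production when they meet viral double-stranded RNA, and none of the 4 passed an adjusted p of 0.05 in either fit. IFIH1 (MDA5) had 7.94, 7.39 and 8.13 CPM in DMSO and 9.20, 8.82 and 8.31 CPM in S767. All S767 libraries lay above all DMSO libraries, and the log2 fold change was 0.16 ± 0.05 with an adjusted edgeR p of 0.132 with the block. RIGI, the sensor of RNA with 5′ triphosphates, stood at 0.00 ± 0.05 with the block. DDX60, a helicase that assists these sensors, was 0.13 ± 0.04 at an adjusted p of 0.107, and DHX58 (LGP2), their regulator, was 0.10 ± 0.09.

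The enzymes that respond to double-stranded RNA differed widely in level, and none passed an adjusted p of 0.05 in either edgeR fit. EIF2AK2 (PKR), the kinase that halts translation by phosphorylating eIF2α, had 57.5, 57.6 and 62.3 CPM in DMSO and 61.7, 63.1 and 65.0 CPM in S767. It was 0.10 ± 0.03 higher with the block, at an adjusted edgeR p of 0.0582, just over the threshold. ADAR was -0.01 ± 0.02 with 100689 to 175434 counts per library, the most precise value among the members. The oligoadenylate synthetases, which make the 2-5A that activates RNase L, gave no call. OAS1 was at 0.806, 0.256 and 0.526 CPM in DMSO and 0.655, 0.335 and 0.386 CPM in S767, so the replicate numbers differed more than the treatments. OAS2 was 0.00 ± 0.09 and OAS3 0.20 ± 0.14 with the block.

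OASL, a relative without synthetase activity that enhances RIG-I signaling, was lower in S767 in all 3 pairs. It had 0.719, 0.424 and 0.897 CPM in DMSO and 0.634, 0.352 and 0.437 CPM in S767. With the block the log2 fold change was -0.51 ± 0.18 at an adjusted edgeR p of 0.149. DMSO replicate 3 was the highest of the 6 libraries.

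The IFIT proteins bind viral RNA and block its translation, and IFIT1, IFIT2 and IFIT3 were also highest in DMSO replicate 3. IFIT2 had 3.58, 3.28 and 9.24 CPM in DMSO and 3.75, 2.73 and 2.27 CPM in S767. The groups overlapped, and a single DMSO library stood far above the other 5. Its log2 fold change was -0.88 ± 0.38 at an unadjusted edgeR P of 0.0484 without the block, and -0.76 ± 0.28 at an adjusted p of 0.176 with it. Without DMSO replicate 3 the value was -0.23 at an unadjusted P of 0.289, so the largest difference among the members rested on that library. IFIT3 had 13.4, 16.5 and 17.5 CPM in DMSO and 12.4, 15.5 and 13.2 CPM in S767, a log2 fold change of -0.21 ± 0.05 at an adjusted edgeR p of 0.0578 with the block. IFIT1 was -0.21 ± 0.11 with the block and 0.03 without DMSO replicate 3 in the fit without a block. IFIT5, the member of the family outside this pattern, was 0.05 ± 0.04. IFNB1, the gene of interferon beta, had 11 counts in DMSO replicate 3, the deepest library, and 2 to 5 counts in the other 5 libraries. Scaled to depth these were 0.043 CPM against 0.013 to 0.028 CPM, from too few counts to be tested. Whether IFNB1 bears on the IFIT levels was not tested.

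Of the membrane proteins that restrict viruses, BST2 rose with the block. BST2 (tetherin; chr19:17402939-17405648, - strand), which holds budding virions at the cell surface, had 58.6, 46.1 and 47.4 CPM in DMSO and 60.8, 50.6 and 54.7 CPM in S767. The groups overlapped, but each S767 library was above the DMSO library of its number. With the block the log2 fold change was 0.13 ± 0.03 at an adjusted edgeR p of 0.0382, which became 0.0508 with limma-voom, 0.104 on RSEM expected counts, 0.434 without the pair of replicate 2 and 0.205 without that of replicate 3. IFITM2 was 0.01 ± 0.03. The IFITM genes lie close together with similar sequences, and the counts of IFITM1 and IFITM2 were 32.5% and 71.5% of their RSEM estimates, so their split is uncertain.

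TRIM22 had the smallest p of the members in both fits. TRIM22 (chr11:5689689-5737089, + strand), a ubiquitin ligase that restricts viral transcription and is high in blood cells, had 122, 102 and 106 CPM in DMSO and 143, 128 and 139 CPM in S767. The lowest S767 library was above the highest DMSO library. The log2 fold change was 0.32 ± 0.03 with the block, an adjusted edgeR p of 0.000232, and 0.32 ± 0.07 without it, an unadjusted P of 0.00191. With the block, TRIM22 was the only member whose adjusted p stayed under 0.05 when any of the 3 pairs was left out, with 0.0432 as the highest value.

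MX1, the dynamin-like GTPase often taken as the marker of interferon exposure, had the largest positive difference but few reads. It had 67 to 134 counts per library, which gave 0.334, 0.451 and 0.418 CPM in DMSO and 0.563, 0.519 and 0.523 CPM in S767. The groups did not overlap. Its log2 fold change was 0.42 ± 0.17 at an unadjusted edgeR P of 0.0377 without the block and 0.43 ± 0.16 at an adjusted p of 0.194 with it. The unadjusted P was 0.0639 with DESeq2, and 0.147 on counts taken without regard to strand. MX2, its relative that restricts HIV and is more abundant here, was 0.07 ± 0.03.

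SAMD9 and SAMD9L, neighboring genes that limit poxviruses and blood cell growth, were higher in each pair. SAMD9 was 0.11 ± 0.03 at an adjusted edgeR p of 0.0662 and SAMD9L 0.13 ± 0.04 at 0.068 with the block. RSAD2 (viperin), which makes a chain-terminating nucleotide, was 0.06 ± 0.08, and ISG20, an RNA exonuclease, was -0.13 ± 0.17.

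The ISG15 system attaches the ubiquitin-like ISG15 to proteins. Of its 3 genes among the 39 members, the ligase was the one that rose with the block. UBA7 and UBE2L6, genes of the same system outside the 39, also rose with it and are given below. HERC5 (chr4:88457117-88506163, + strand), the ISG15 ligase, had 36.2, 34.1 and 35.3 CPM in DMSO and 39.1, 38.0 and 38.2 CPM in S767. The 3 S767 libraries lay above the 3 DMSO libraries. The log2 fold change was 0.13 ± 0.03 with the block, an adjusted edgeR p of 0.0273, and 0.13 ± 0.04 without it, an unadjusted P of 0.0173. Without the pair of replicate 2 the blocked adjusted p was 0.427. ISG15 itself was 0.04 ± 0.04 and USP18, the protease that removes it and dampens the receptor, was 0.06 ± 0.09, so HERC5 passed the test where both of these did not, and the differences among the 3 genes were not tested.

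PARP9 (chr3:122527924-122564577, - strand), an ADP-ribosyltransferase family member that works with the ubiquitin ligase DTX3L in interferon signaling, also rose. It had 7.80, 6.65 and 7.55 CPM in DMSO and 9.50, 8.58 and 8.70 CPM in S767. Here too the groups did not overlap. Its log2 fold change was 0.28 ± 0.05 with the block, an adjusted edgeR p of 0.0109, and 0.28 ± 0.09 without it, an unadjusted P of 0.0102. Without the pair of replicate 2 the blocked adjusted p was 0.294. The gene overlaps DTX3L on the opposite strand, and the counts used were those of 1 strand.

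Among the other interferon-stimulated genes, IFI35, a partner of NMI, had 8.59, 7.12 and 7.89 CPM in DMSO and 8.90, 8.63 and 8.98 CPM in S767, without overlap. Its log2 fold change with the block was 0.17 ± 0.05 at an adjusted edgeR p of 0.116. XAF1, which promotes apoptosis, was 0.11 ± 0.03 at 0.0709. IFI27 was -0.18 ± 0.19, IFI44 -0.11 ± 0.16 and IFI44L -0.15 ± 0.18. The exact two-sided permutation test of 3 against 3 libraries cannot go below 0.1 for a single gene, and it gave 0.1 for the 6 members without overlap, IFIH1, MX1, TRIM22, HERC5, IFI35 and PARP9.

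**Figure D3:**
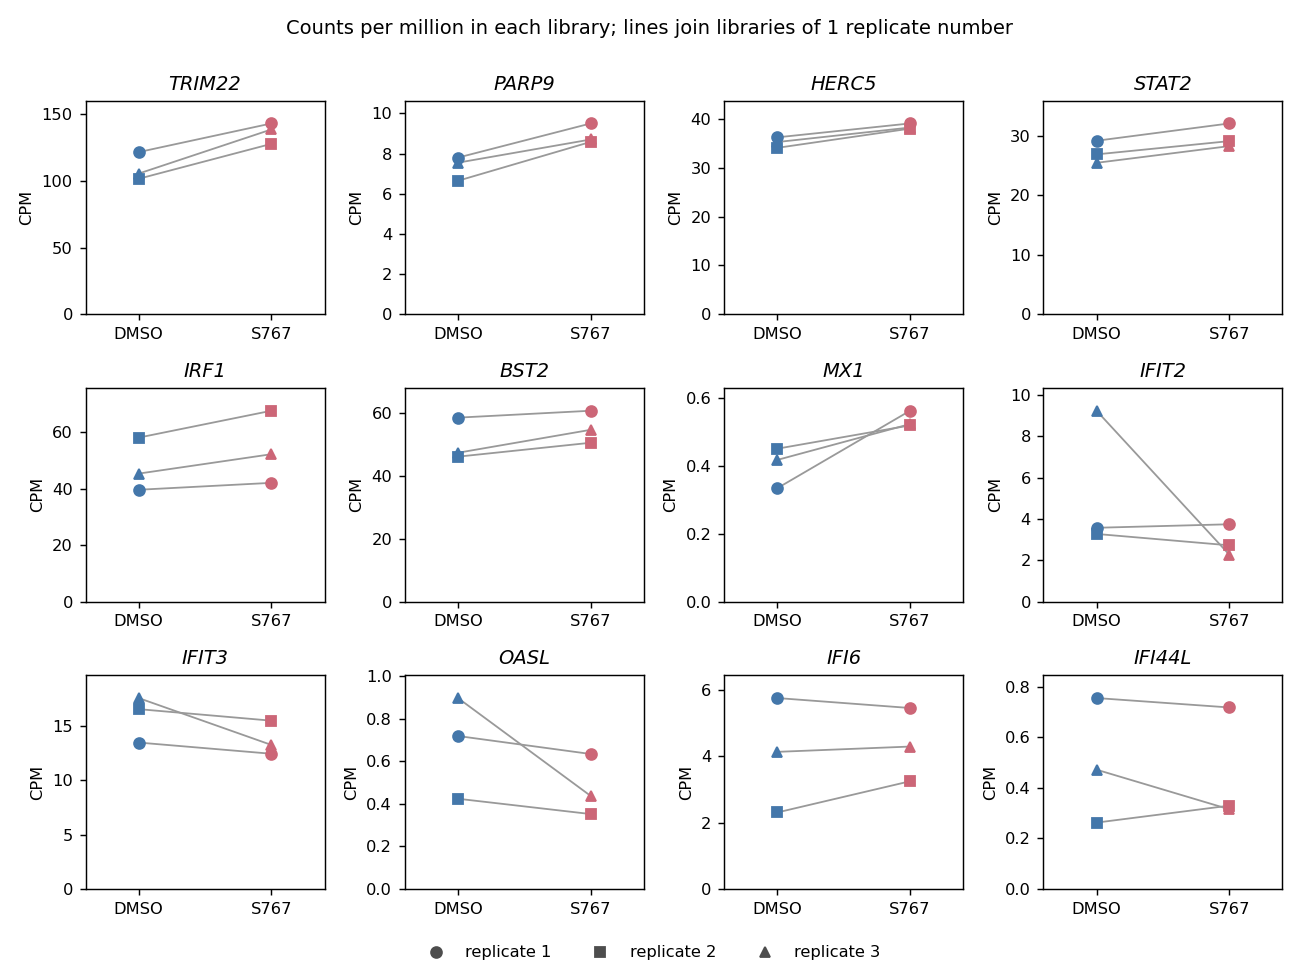
CPM of 12 members in each library, with lines joining DMSO and S767 libraries of the same replicate number and every vertical axis starting at 0. TRIM22, PARP9, HERC5, STAT2, IRF1 and BST2 rise in all 3 pairs. IFIT2 drops steeply only in the pair of replicate 3, where the DMSO library stands far above all others. IFI6 and IFI44L keep the order of the replicate numbers more than that of the treatments.

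More of the members' variation lay between replicate numbers than between treatments, as over all genes. The median share of the variance in log2 CPM was 73.8% between replicate numbers and 12.1% between treatments, beside 62.8% and 10.2% over all genes tested. The replicate share was the larger in 28 of the 38 members (73.7%) and in 80.5% of all genes tested. It compares 3 replicate numbers and the treatment share 2 groups, so it tends to be the larger even without any effect. Neither share was tested. Mean levels of the 3 replicate numbers lay more than 1.5-fold apart in 13 members (34.2%), beside 16.9% of all genes tested. IFI6, a mitochondrial antiviral protein, shows the pattern, with 5.76, 2.31 and 4.14 CPM in DMSO and 5.46, 3.25 and 4.30 CPM in S767. In both groups replicate 1 was the highest and replicate 2 the lowest, and their means over the treatments were 2.02-fold apart. The corresponding figures were 2.49-fold for IFI44L, 2.47-fold for OAS1 and 2.13-fold for IRF9. Replicate 1 was highest and replicate 2 lowest in 17 members, and a further 9 had replicate 3 highest and replicate 1 lowest. What the replicate numbers share is not stated in the sources used here.

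**Figure D4:**
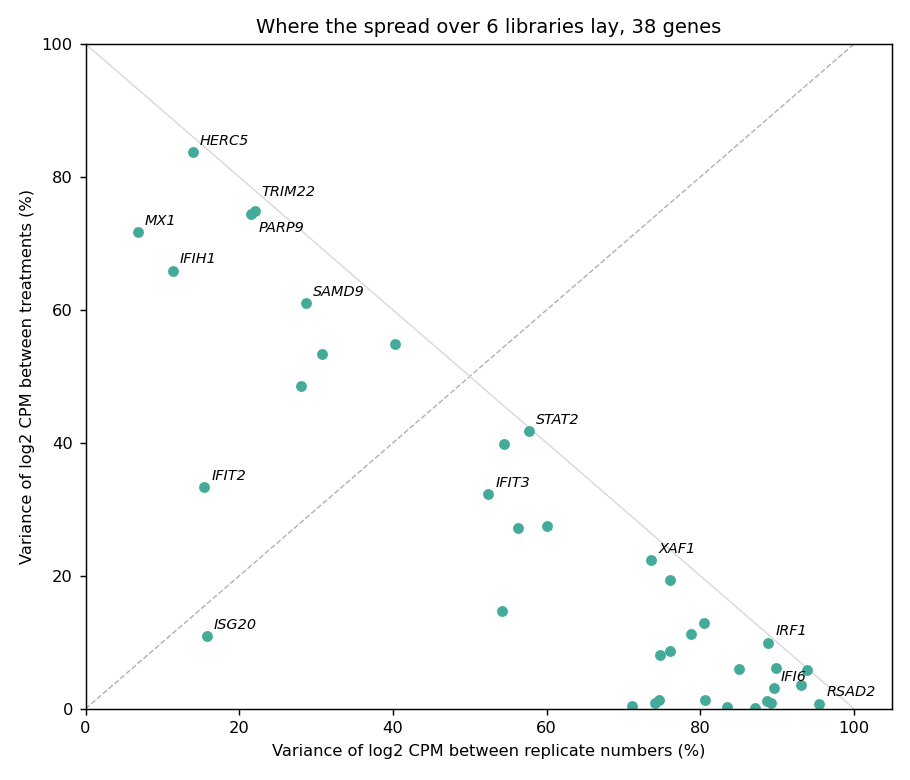
Share of the variance in log2 CPM over the 6 libraries that lay between replicate numbers (horizontal, %) and between treatments (vertical, %), 1 point per member. The dashed line marks equal shares and the solid line a sum of 100%. HERC5, TRIM22, PARP9 and MX1 lie near the top left, and 28 of 38 members lie below the dashed line. Points tend to lie below it even without an effect, since 3 replicate numbers are set against 2 treatments.

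The genes around the members were read from lists of the same pathway. The interferons themselves were near absent, and none of the 22 ligand genes had enough counts to be tested. No count in any library was found for 16 of them, IFNG included, which allows up to 3 counts or 0.0116 to 0.0202 CPM per library, for counting error only. IFNB1 was the highest with 2 to 11 counts, and no other ligand exceeded 3.

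Of 9 receptor and signal transducer genes tested, 1 rose with the block, the receptor-bound kinase TYK2, beside 2.16% of all genes tested. TYK2 had 166, 157 and 158 CPM in DMSO and 183, 173 and 172 CPM in S767. The groups did not overlap, and the log2 fold change was 0.13 ± 0.02 at an adjusted edgeR p of 0.00853 with the block. Without the pair of replicate 2 the adjusted p was 0.316 at 0.13 ± 0.03. The median over the 9 was 0.06 without the block. IFNGR1, a subunit of the interferon gamma receptor and the second most abundant of the list, was -0.02 ± 0.02.

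Of 13 nucleic acid sensing genes tested, SAMHD1 rose and 0 fell with the block, beside 2.16% and 1.08% of all genes tested. SAMHD1, which hydrolyzes deoxynucleotides and restricts retroviruses, was 0.13 ± 0.03 at an adjusted edgeR p of 0.034 with the block, which was 0.42 without the pair of replicate 2 and 0.186 without that of replicate 3. STING1 and IRF8, the most abundant of the list, were 0.04 ± 0.02 and 0.01 ± 0.02, and the list's median was 0.04 without the block. None of the 6 negative regulators passed the test at an adjusted p of 0.05 or an unadjusted P of 0.05 in edgeR, with a median of -0.004, and PTPN6 and PTPN2, the most abundant, were 0.02 ± 0.02 and -0.02 ± 0.03.

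A second list of 47 interferon-stimulated genes outside the 39 had 41 members tested. With the block 12 of them rose and 1, ZC3HAV1, fell at an adjusted edgeR p under 0.05, and without it 7 were higher and 0 lower at an unadjusted P under 0.05. Over all genes tested the shares were 2.16% and 1.08% with the block and 2.03% and 1.51% without. With the block but without the pair of replicate 2, 1 of them rose, PARP10, beside 0.0943% of all genes tested. Without that of replicate 1, 22 rose and 3 fell, beside 5.52% and 4.34%, and without that of replicate 3, 8 rose and 0 fell, beside 2.01% and 1.05%. The median without the block was 0.08 and 33 of 41 lay above 0. PARP10, an ADP-ribosyltransferase, had 27.4, 30.0 and 31.0 CPM in DMSO and 32.5, 34.6 and 38.4 CPM in S767, a log2 fold change of 0.26 ± 0.03 at an adjusted edgeR p of 0.00092.

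DTX3L, the partner of PARP9, had 40.6, 41.2 and 40.9 CPM in DMSO and 45.6, 45.9 and 46.4 CPM in S767. The 2 groups were narrow and separate, with 0.17 ± 0.03 at an adjusted edgeR p of 0.00549. UBA7, the enzyme that activates ISG15, and UBE2L6, the enzyme that carries it to HERC5, rose by 0.22 ± 0.03 (adjusted p = 0.00412) and 0.18 ± 0.04 (adjusted p = 0.0201). Neither passed without the pair of replicate 2, with adjusted p of 0.185 for UBA7 and 0.31 for UBE2L6, and UBE2L6 was at 0.0855 without that of replicate 3.

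With the block the antigen processing genes TAP1 and PSMB9 rose by 0.15 ± 0.03 and 0.23 ± 0.05. Their unadjusted edgeR P without the block was 0.0116 and 0.145. PSMB8, among the 2 most abundant genes of the list, was 0.06 ± 0.03 with the block and did not pass the test. SP110, TRIM14, TDRD7, PARP14, LGALS9 and GBP4 were the other genes that rose with the block. Their values were 0.22 ± 0.04, 0.13 ± 0.02, 0.14 ± 0.03, 0.11 ± 0.02, 0.13 ± 0.02 and 0.38 ± 0.09. GBP4 had 152 to 408 counts per library, and without the block it was 0.38 ± 0.39 at an unadjusted edgeR P of 0.364. That P was 0.0536 for PARP14 and under 0.05 for SP110, TRIM14, TDRD7 and LGALS9. The counts of LGALS9 were 66.5% of its RSEM estimate, so its level is uncertain. ZC3HAV1 (ZAP), which degrades viral RNA rich in CpG, was -0.10 ± 0.02 at an adjusted edgeR p of 0.0459. Of the 9 myeloid markers tested, CD33 rose with the block by 0.11 ± 0.02 at an adjusted edgeR p of 0.0241 (0.42 without the pair of replicate 2), beside 2.16% of all genes tested. The median of the 9 with the block was -0.03, with MPO, CEBPA and ITGAM at -0.07 ± 0.03, -0.07 ± 0.02 and -0.17 ± 0.06, none past an adjusted p of 0.05. Of the 6 tested markers of other cell types 0 passed.

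The promoter matches did not divide the members by their difference. Of the 19 members tested with an ISRE core match, 13 lay above 0 with a median of 0.07, and of the 10 with a promoter entry but no match, 6 lay above 0 with a median of 0.10. For the GAS, 6 of 9 members with a match lay above 0 with a median of 0.13, and 13 of 20 without one with a median of 0.08. Of the 6 members that rose with the block, HERC5, BST2 and PARP9 hold an ISRE core match, STAT2 and IRF1 have an entry without one, and TRIM22 has no entry. ISG15, IFIT1 and IFI6, which hold more than 1 match, did not pass the test. IRF1 has the GAS printed above.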

How the data were processed

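Polyadenylated RNA from 6 OCI-AML5 libraries was sequenced from a stranded kit. The authors aligned reads with STAR 2.7.1a to GRCh38 and deposited, per library, gene counts for each strand setting, and RSEM 1.2.28 expected counts and TPM. The annotation release of the deposited files is not given in the sources used here. Reverse-strand counts were used, since forward counts made up 6.44% to 6.58% of both strands. The 4 summary lines, 20.3% of all fragments, were left out.

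Counts of 20725 genes that passed edgeR's filterByExpr (minimum count 10) were tested with edgeR 4.0.16 (quasi-likelihood, TMM, R 4.3.3) without a block, as the study's methods name none. SEs were derived from each log2 fold change and its quasi-likelihood F. CPM are counts scaled to the TMM-adjusted library size. The replicate number as a block was the alternative. Labels share numbers across groups but do not say what they stand for. The pairing comes from the data. The 3 same-number correlations of deviations from the group means (genes with a mean log2 CPM above 5) were 0.779, 0.872 and 0.754. All others were negative. Deviations within a group cancel out for each gene, so the negative values follow in part from the positive ones. Further alternatives were limma-voom 3.58.1, DESeq2 1.42.0, RLE factors, library size alone, other filters, RSEM expected counts (rounded), counts without strand, limma on log2(TPM + 1) and log2(TPM + 0.1) for genes at 0.1 TPM or more in 3 libraries, and leaving out each library or pair. Symbols were matched through GENCODE 29 names and gene coordinates come from it. The fits were tested on simulated counts.

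The members and lists were chosen with earlier results of these data known. Named genes are all 39 members and, from the other lists, those with P under 0.05 without the block or an adjusted p under 0.05 with it, and the 2 most abundant per list. IFNG, CD3E, HBA1, CD34, ANPEP, MPO and ITGAM fall outside that rule and were chosen after their values were seen. One gene of these lists is not reported here. No library was a repeat of another: chi-square per gene was 26.5 to 50.1 within a treatment.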

Additional observations from a re-analysis of the deposited data

How the results depend on the processing

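Members with fewer counts had larger SEs. The median SE was 0.29 without the block and 0.16 with it for members with a mean under 500 counts. For members with more counts it was 0.08 and 0.04. What limited the precision was not tested. Across 24 alternative settings, 912 log2 fold changes of single members were recomputed: 701 kept their direction and their side of an unadjusted P of 0.05, 118 came under it, 29 no longer did, and 64 values in 18 genes changed sign. The cause of these changes was not tested.

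The count of members lower in S767 at an unadjusted P under 0.05 (1 in edgeR without the block) was 0 with limma-voom, DESeq2, library size alone, at least 10 counts in every library, RSEM expected counts, and limma on log2(TPM + 1) or log2(TPM + 0.1), and 3 with no limit on low counts. The count of those higher (4) was 1 on either TPM scale. In either direction, 732 of 20725 genes tested had an unadjusted P under 0.05 in edgeR without the block. The figure was 750 of 18646 on log2(TPM + 1), 738 of 18646 on log2(TPM + 0.1) and 1044 of 35279 with no limit on low counts. With the replicate block 15 were higher, 3 lower and 6 past an adjusted p of 0.05. Those counts were 14, 3 and 5 with the block in limma-voom, 13, 1 and 7 in DESeq2, 14, 3 and 4 on RSEM expected counts, and 15, 3 and 6 with library size alone. Of all 20725 genes tested, 3475 had an unadjusted P and 670 an adjusted p under 0.05 in edgeR with the block. With the block these were 3428 and 609 in limma-voom, 2109 and 630 in DESeq2, and 3454 and 617 with library size alone. On RSEM expected counts they were 3322 and 394 of 18851. Leaving out a library or, with the block, a pair gave 3 to 17 higher, 0 to 5 lower and 0 to 16 past an adjusted p. Over the 20629 to 21539 genes tested in these fits, 534 to 4362 had an unadjusted P and 1 to 2034 an adjusted p under 0.05. The members' median stayed above 0 in all 24 settings.

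OAS2 changed sign to 0.0040 with the replicate block, 0.012 with the block in DESeq2, 0.0015 with the block and library size alone, 0.013 on log2(TPM + 1) and 0.029 on log2(TPM + 0.1). IFITM1 was -0.045 on RSEM expected counts, -0.043 on them with the block, -0.047 on log2(TPM + 1) and -0.075 on log2(TPM + 0.1). USP18 was -0.020 on RSEM expected counts, -0.020 on them with the block, -0.020 on log2(TPM + 1) and -0.031 on log2(TPM + 0.1). On the same TPM scales MX2 was -0.0027 and -0.0030 and IFI44L 0.048 and 0.20. Leaving out a library or pair gave ranges across 0 for IRF1 (-0.015 to 0.34), IRF9 (-0.49 to 0.11), RIGI (-0.033 to 0.037), OAS1 (-0.57 to 0.20), OAS2 (-0.22 to 0.15), OAS3 (-0.10 to 0.40), ADAR (-0.025 to 0.011), IFIT1 (-0.35 to 0.034), IFITM1 (-0.22 to 0.26), IFITM2 (-0.035 to 0.095), MX2 (-0.035 to 0.16), RSAD2 (-0.11 to 0.29), ISG20 (-0.31 to 0.11), ISG15 (-0.023 to 0.084), USP18 (-0.018 to 0.11), IFI6 (-0.19 to 0.42), IFI44 (-0.47 to 0.18) and IFI44L (-0.64 to 0.29).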

Other observations

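The counts and the RSEM estimates of IFI27, a mitochondrial protein gene strongly raised by interferon alpha, ordered the libraries differently. Its counts gave 0.375, 0.209 and 0.344 CPM in DMSO and 0.332, 0.190 and 0.295 CPM in S767, with DMSO replicate 1 the highest. RSEM gave 0.65, 0.32 and 0.61 TPM in DMSO and 0.88, 0.21 and 0.36 TPM in S767, with S767 replicate 1 the highest. Summed over the libraries, the counts were 140% of the RSEM estimate for IFI27, while for 35 of the 39 members they were at least 90% of it. IFITM3, the member left untested, had 45 counts on the gene's strand and 35 on the other over the 6 libraries.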
